A study of Mus musculus with 12 samples.

Results

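The 40 genes described here act in DNA replication and the S phase of the cell cycle. They were taken as a named list, and each was represented by the probe carrying its name with the brightest mean signal. All 40 were found on the array and all 40 passed the detection filter, out of 18559 genes kept and 31541 gene names on the array. The list was not chosen by any measured value of these arrays, but it was drawn up with earlier results of these data known. Expression was measured on 12 arrays from bone marrow of female mice of the C57BL/6 strain, aged 16 weeks, sorted into 6 groups of 2 arrays. All mice carry a human CD4 (hCD4) surface reporter driven by enhancer and promoter sequence of Cebpa, the gene of a transcription factor of myeloid progenitors, and no group without the reporter construct was analysed here. The groups, in the order used below, are hCD4+ granulocyte-monocyte progenitors (GMP), the hCD4+ and hCD4- pre-pro-B cells, the hCD4+ and hCD4- pro-B cells, and pre-B cells. For the last group no hCD4 status is stated. The series title names 2 mice, and the labels do not tie a replicate number to a mouse, so the p-values rest on a spread between samples that may be technical. RNA was amplified and labelled with Cy3 before hybridization.

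Before a cell copies its genome, the factors Cdc6 and Cdt1 load the ring-shaped helicase of the proteins Mcm2 to Mcm7 onto replication origins, and Mcm10 and the GINS complex turn it into an active helicase. Primase and polymerase alpha start each new strand, polymerases delta and epsilon extend it on the sliding clamp PCNA, and Fen1 and Lig1 join the pieces. Most of these genes are transcribed in G1 and S phase under control of E2F transcription factors, so their RNA is abundant in cycling cells and scarce in resting ones. In B cell development, large cycling cells are found at the pro-B stage and early in the pre-B stage, and cells leave the cycle before they rearrange immunoglobulin light chain genes.

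The DNA element that E2F proteins recognise is shown first, as a description of the members. The promoter window of a gene was taken from the RefSeq table of GRCm38.p6 and runs from 250 bases before the start of the transcript to 50 bases after it. Of the 40 genes, 33 had a window. The letters searched on both strands were TTTCCCGC, TTTCGCGC, TTTGCCGC and TTTGGCGC, and overlapping matches were counted separately. A match was found for 13 of the 33 genes (39.4%), against 704 of the 27025 genes with a window (2.6%). Windows of the members also held more G and C, with a median of 62.2% against 52.7% over all windows. In 7 genes a match lies before the start. In the remaining 6 (Mcm3, Cdt1, Pold1, Lig1, E2f2 and Clspn) every match lies in the first 50 bases after it. The 7 stretches below begin 15 bases before the first match and end at the base before the start, are written 5′ to 3′ on the strand of the gene, and have the matches in capitals. A match is a description of letters, and binding was not measured.
Mcm5: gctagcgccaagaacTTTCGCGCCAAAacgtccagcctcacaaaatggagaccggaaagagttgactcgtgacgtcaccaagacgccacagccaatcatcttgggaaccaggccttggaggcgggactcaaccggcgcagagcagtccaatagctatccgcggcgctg
Mcm6: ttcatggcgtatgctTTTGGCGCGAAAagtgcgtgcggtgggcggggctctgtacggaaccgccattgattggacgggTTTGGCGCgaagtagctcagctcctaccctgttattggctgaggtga
Mcm7: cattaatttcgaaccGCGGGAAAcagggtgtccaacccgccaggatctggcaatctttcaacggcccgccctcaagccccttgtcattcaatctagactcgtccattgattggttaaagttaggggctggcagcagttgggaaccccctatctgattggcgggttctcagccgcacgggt
Cdc6: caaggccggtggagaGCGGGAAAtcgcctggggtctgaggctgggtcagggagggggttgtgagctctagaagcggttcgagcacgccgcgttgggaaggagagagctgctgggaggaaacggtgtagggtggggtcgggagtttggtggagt
Pola1: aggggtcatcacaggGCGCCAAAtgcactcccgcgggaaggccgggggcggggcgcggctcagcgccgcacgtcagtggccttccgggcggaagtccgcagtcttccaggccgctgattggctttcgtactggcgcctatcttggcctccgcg
Rfc3: agtgacgtcgcacgcTTTCGCGCtc
E2f7: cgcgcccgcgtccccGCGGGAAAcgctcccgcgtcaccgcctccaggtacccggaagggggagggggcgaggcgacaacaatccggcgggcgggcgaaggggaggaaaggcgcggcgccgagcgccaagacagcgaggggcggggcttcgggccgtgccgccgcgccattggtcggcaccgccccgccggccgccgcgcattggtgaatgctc

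These stretches lie at chr8:75109341-75109508 (Mcm5, plus strand), chr1:128359706-128359830 (Mcm6, minus strand), chr5:138171884-138172063 (Mcm7, minus strand), chr11:98907998-98908150 (Cdc6, plus strand), chrX:93632156-93632308 (Pola1, minus strand), chr5:151651209-151651233 (Rfc3, minus strand) and chr10:110745226-110745438 (E2f7, plus strand) on GRCm38.p6. In Mcm5 and in the first site of Mcm6, matches on the 2 strands overlap in a run of 12 letters. The G2/M genes, which peak later in the cycle and are used for comparison below, held the E2F letters in 1 of 23 windows (4.35%). They held another element, TTTGAA, in 17 of 23 windows (73.9%), against 4 of 33 for the replication genes (12.1%) and 20.2% over all genes with a window.

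Levels below are log2 brightness relative to the 75th percentile of the same array. A level of 0 is the brightness of that percentile, and levels of different probes were not compared. The array software marked 50.6% to 56.8% of all probes as well above background, replicates correlated at 0.982 to 0.992, and no spot was saturated. The arrays of hCD4- pre-pro-B cells were dimmer, with a mean 75th percentile intensity of 297, against 527 to 786 in the other groups. They also differed more from each other, with a median standard deviation of 0.221 over all genes, against 0.098 to 0.152 elsewhere. Over the 40 genes that figure was 0.085 in hCD4- pre-pro-B cells. The arrays lie on 3 slides of 4. GMP shared a slide with hCD4- pre-pro-B cells, hCD4- pro-B cells with hCD4+ pre-pro-B cells, and pre-B cells with hCD4+ pro-B cells. In any other pairing, slide and group cannot be told apart. Of the 14 B lineage markers, Pax5 and Ebf1 were not above background on any array of either pre-pro-B group. They were above it on all pro-B and pre-B arrays. Of the whole list, 8 were above background on the hCD4- pre-pro-B arrays and 9 to 11 on the hCD4+ ones. All 14 were above it on the pro-B and pre-B arrays.

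Replication genes were lowest in hCD4- pre-pro-B cells. The lowest of the 6 group means was that of hCD4- pre-pro-B cells for 38 of the 40 genes, and the highest was that of hCD4+ pro-B cells for 18, hCD4- pro-B cells for 11, GMP for 8 and pre-B cells for 3. The median level over the 40 genes lay at 3.34 to 3.46 on the GMP arrays, 2.27 to 2.45 on the hCD4+ pre-pro-B arrays, 0.57 to 0.62 on the hCD4- pre-pro-B arrays, 3.73 to 3.75 on the hCD4+ pro-B arrays, 3.54 to 3.56 on the hCD4- pro-B arrays and 3.01 to 3.08 on the pre-B arrays. In these sorted bulk samples, fewer cells in S phase and less of each RNA per cell cannot be told apart. A moderated F test over the 6 groups (limma) called 39 of the 40 genes at an adjusted p under 0.05, where it called 82.8% of all genes, and the exception was Ung. In all, 11 contrasts were tested besides.

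**Figure D1:**
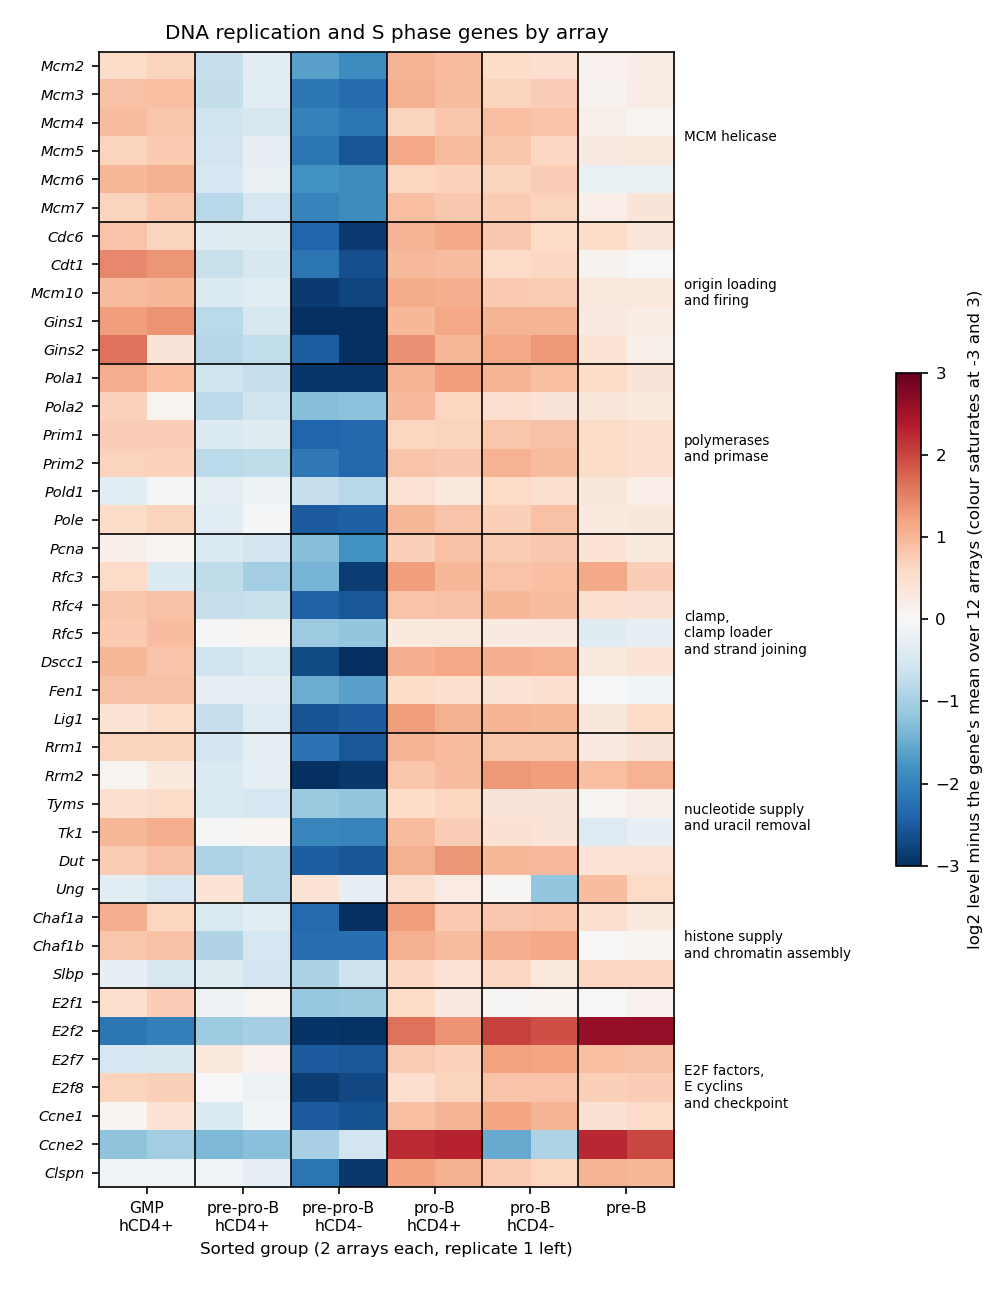
Heat map of the 40 genes (rows, grouped by role) on the 12 arrays (columns, in pairs by sorted group). Colour gives the log2 level minus the gene's mean over the 12 arrays and saturates at -3 and 3. The hCD4- pre-pro-B columns are the lowest for 38 genes, while E2f2, Ccne2 and Ung follow patterns of their own.

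In all 6 genes of the Mcm2 to Mcm7 helicase the hCD4- pre-pro-B mean was the lowest and the hCD4+ pre-pro-B mean came next. Mcm5, a subunit of that ring, lay at 4.85 and 4.96 in GMP, 3.61 and 3.93 in hCD4+ pre-pro-B, 2.02 and 1.62 in hCD4- pre-pro-B, 5.33 and 5.13 in hCD4+ pro-B, 5.02 and 4.80 in hCD4- pro-B and 4.45 and 4.51 in pre-B cells. Neither pre-pro-B pair overlapped with any other group. Mcm2, another subunit, lay at 3.47 and 3.59 in GMP, 2.24 and 2.58 in hCD4+ pre-pro-B, 1.31 and 1.04 in hCD4- pre-pro-B, 3.96 and 3.86 in hCD4+ pro-B, 3.48 and 3.44 in hCD4- pro-B and 3.05 and 3.16 in pre-B cells. Mcm6 lay at 6.64 and 6.73 in GMP, 5.16 and 5.44 in hCD4+ pre-pro-B, 3.85 and 3.77 in hCD4- pre-pro-B, 6.31 and 6.34 in hCD4+ pro-B, 6.33 and 6.39 in hCD4- pro-B and 5.44 and 5.46 in pre-B cells. Its highest arrays were the GMP ones, and 1 hCD4+ pre-pro-B array came level with pre-B cells. Mcm4 lay at 4.73 and 4.60 in GMP, 3.18 and 3.29 in hCD4+ pre-pro-B, 1.75 and 1.59 in hCD4- pre-pro-B, 4.44 and 4.60 in hCD4+ pro-B, 4.68 and 4.63 in hCD4- pro-B and 3.95 and 3.86 in pre-B cells. The order of levels between GMP and both pro-B groups was not the same from gene to gene.

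Cdc6, a loader of the helicase, lay at 0.68 and 0.49 in GMP, -0.52 and -0.53 in hCD4+ pre-pro-B, -2.55 and -3.04 in hCD4- pre-pro-B, 0.85 and 0.96 in hCD4+ pro-B, 0.63 and 0.43 in hCD4- pro-B and 0.38 and 0.20 in pre-B cells. Cdt1, the other loader, whose protein is destroyed once S phase begins, lay at 5.11 and 4.998 in GMP, 3.01 and 3.17 in hCD4+ pre-pro-B, 1.48 and 1.03 in hCD4- pre-pro-B, 4.63 and 4.58 in hCD4+ pro-B, 4.23 and 4.29 in hCD4- pro-B and 3.76 and 3.67 in pre-B cells, and its GMP arrays were above all others. Mcm10, which helps to fire origins, lay at 2.98 and 3.02 in GMP, 1.60 and 1.71 in hCD4+ pre-pro-B, -0.84 and -0.74 in hCD4- pre-pro-B, 3.13 and 3.12 in hCD4+ pro-B, 2.82 and 2.79 in hCD4- pro-B and 2.35 and 2.34 in pre-B cells. For these 3 genes all arrays were well above background, and both pre-pro-B groups lay below all the others. The GINS subunit gene Gins1 lay at 2.89 and 2.97 in GMP, 0.82 and 1.16 in hCD4+ pre-pro-B, -1.39 and -1.38 in hCD4- pre-pro-B, 2.62 and 2.80 in hCD4+ pro-B, 2.64 and 2.65 in hCD4- pro-B and 1.89 and 1.86 in pre-B cells. Gins2 lay at 0.80 and -0.42 in GMP, -1.68 and -1.55 in hCD4+ pre-pro-B, -3.30 and -4.12 in hCD4- pre-pro-B, 0.55 and 0.17 in hCD4+ pro-B, 0.35 and 0.47 in hCD4- pro-B and -0.42 and -0.68 in pre-B cells. Its GMP arrays lay far apart, and its second hCD4- pre-pro-B array was not well above background.

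Of the polymerase and primase genes, 5 of 6 were well above background on every array. Pola1, the catalytic subunit of polymerase alpha, lay at 2.66 and 2.46 in GMP, 0.96 and 0.86 in hCD4+ pre-pro-B, -1.37 and -1.37 in hCD4- pre-pro-B, 2.58 and 2.82 in hCD4+ pro-B, 2.57 and 2.45 in hCD4- pro-B and 2.11 and 1.95 in pre-B cells. Pola2, the second subunit of polymerase alpha, lay at -2.26 and -2.86 in GMP, -3.74 and -3.55 in hCD4+ pre-pro-B, -4.24 and -4.18 in hCD4- pre-pro-B, -1.96 and -2.31 in hCD4+ pro-B, -2.48 and -2.55 in hCD4- pro-B and -2.58 and -2.67 in pre-B cells, and both hCD4- pre-pro-B values were not well above background. Pold1, the catalytic subunit of polymerase delta, had a much narrower spread, at 3.92 and 4.18 in GMP, 3.96 and 4.08 in hCD4+ pre-pro-B, 3.54 and 3.41 in hCD4- pre-pro-B, 4.66 and 4.54 in hCD4+ pro-B, 4.84 and 4.72 in hCD4- pro-B and 4.58 and 4.44 in pre-B cells. The hCD4- pre-pro-B arrays were still its lowest, and its GMP and hCD4+ pre-pro-B arrays overlapped.

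Pcna, the sliding clamp, lay at 5.18 and 5.08 in GMP, 4.59 and 4.47 in hCD4+ pre-pro-B, 3.74 and 3.20 in hCD4- pre-pro-B, 5.72 and 5.89 in hCD4+ pro-B, 5.79 and 5.83 in hCD4- pro-B and 5.42 and 5.32 in pre-B cells. The 4 pro-B arrays were its highest, and the groups hCD4+ and hCD4- pro-B overlapped. Rfc3, a clamp loader subunit, lay at -0.52 and -1.51 in GMP, -1.86 and -2.13 in hCD4+ pre-pro-B, -2.49 and -3.93 in hCD4- pre-pro-B, 0.17 and -0.10 in hCD4+ pro-B, -0.23 and -0.18 in hCD4- pro-B and 0.04 and -0.35 in pre-B cells. Its replicates were far apart in GMP and in hCD4- pre-pro-B cells, where the second array was not well above background. Rfc5, another subunit of that loader, lay at 4.20 and 4.33 in GMP, 3.34 and 3.48 in hCD4+ pre-pro-B, 2.31 and 2.24 in hCD4- pre-pro-B, 3.70 and 3.72 in hCD4+ pro-B, 3.67 and 3.68 in hCD4- pro-B and 3.05 and 3.15 in pre-B cells, with GMP arrays above all others. Dscc1, part of an alternative clamp loader used in sister chromatid cohesion, lay at 0.27 and 0.14 in GMP, -1.32 and -1.17 in hCD4+ pre-pro-B, -3.41 and -3.87 in hCD4- pre-pro-B, 0.38 and 0.44 in hCD4+ pro-B, 0.37 and 0.32 in hCD4- pro-B and -0.43 and -0.31 in pre-B cells, again lowest in hCD4- pre-pro-B cells.

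Genes of nucleotide supply showed the same low group and different tops. Rrm2, the small subunit of ribonucleotide reductase, lay at 4.53 and 4.73 in GMP, 4.002 and 4.15 in hCD4+ pre-pro-B, 1.43 and 1.53 in hCD4- pre-pro-B, 5.27 and 5.37 in hCD4+ pro-B, 5.73 and 5.70 in hCD4- pro-B and 5.35 and 5.49 in pre-B cells, so that both pro-B groups and pre-B cells were above GMP. Tk1, which salvages thymidine, lay at 4.17 and 4.28 in GMP, 3.12 and 3.24 in hCD4+ pre-pro-B, 1.23 and 1.19 in hCD4- pre-pro-B, 4.12 and 3.91 in hCD4+ pro-B, 3.64 and 3.58 in hCD4- pro-B and 2.80 and 2.93 in pre-B cells and had its top in GMP and hCD4+ pro-B cells. Dut, which removes dUTP from the nucleotide pool, lay at 3.58 and 3.69 in GMP, 1.88 and 1.96 in hCD4+ pre-pro-B, 0.34 and 0.25 in hCD4- pre-pro-B, 3.87 and 4.14 in hCD4+ pro-B, 3.82 and 3.78 in hCD4- pro-B and 3.22 and 3.24 in pre-B cells. For Tk1 and Dut the pre-B arrays lay below all pro-B arrays. Of the genes of chromatin assembly, Chaf1b, a subunit of the chaperone that places histones on new DNA, lay at 4.22 and 4.26 in GMP, 2.48 and 2.85 in hCD4+ pre-pro-B, 1.11 and 1.14 in hCD4- pre-pro-B, 4.45 and 4.35 in hCD4+ pro-B, 4.47 and 4.52 in hCD4- pro-B and 3.38 and 3.45 in pre-B cells. Its GMP and pro-B arrays stood above pre-B cells, and pre-B above hCD4+ pre-pro-B cells. Slbp, which binds the end of replication-dependent histone mRNA, varied less and lay at -0.31 and -0.54 in GMP, -0.44 and -0.64 in hCD4+ pre-pro-B, -1.02 and -0.70 in hCD4- pre-pro-B, 0.54 and 0.37 in hCD4+ pro-B, 0.55 and 0.25 in hCD4- pro-B and 0.54 and 0.54 in pre-B cells. Its GMP, hCD4+ pre-pro-B and hCD4- pre-pro-B arrays lay together below 0, and its pro-B and pre-B arrays lay together above 0.

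Among the regulators, E2f1, an activating E2F factor, lay at 2.33 and 2.55 in GMP, 1.65 and 1.88 in hCD4+ pre-pro-B, 0.67 and 0.68 in hCD4- pre-pro-B, 2.39 and 2.09 in hCD4+ pro-B, 1.85 and 1.88 in hCD4- pro-B and 1.79 and 1.95 in pre-B cells. E2f8, a repressing E2F factor, lay at 2.89 and 2.96 in GMP, 2.24 and 2.07 in hCD4+ pre-pro-B, -0.61 and -0.47 in hCD4- pre-pro-B, 2.74 and 2.89 in hCD4+ pro-B, 3.09 and 3.08 in hCD4- pro-B and 2.94 and 2.98 in pre-B cells, with GMP, pro-B and pre-B arrays close together. E2f7, a second repressing factor, lay at 0.37 and 0.41 in GMP, 1.19 and 1.01 in hCD4+ pre-pro-B, -1.62 and -1.67 in hCD4- pre-pro-B, 1.64 and 1.57 in hCD4+ pro-B, 2.08 and 2.05 in hCD4- pro-B and 1.79 and 1.75 in pre-B cells. These 3 genes shared the hCD4- pre-pro-B minimum and differed in GMP, whose arrays reached the top of the range for E2f1 and lay below the hCD4+ pre-pro-B arrays for E2f7. Ccne1, the cyclin E1 that drives entry into S phase, lay at 2.25 and 2.61 in GMP, 1.77 and 2.11 in hCD4+ pre-pro-B, -0.31 and -0.41 in hCD4- pre-pro-B, 3.097 and 3.22 in hCD4+ pro-B, 3.37 and 3.22 in hCD4- pro-B and 2.65 and 2.78 in pre-B cells. Clspn, an adaptor of the replication checkpoint, lay at -1.19 and -1.22 in GMP, -1.21 and -1.38 in hCD4+ pre-pro-B, -3.27 and -3.97 in hCD4- pre-pro-B, 0.13 and -0.03 in hCD4+ pro-B, -0.32 and -0.44 in hCD4- pro-B and -0.07 and -0.09 in pre-B cells, and its second hCD4- pre-pro-B array was not well above background.

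**Figure D2:**
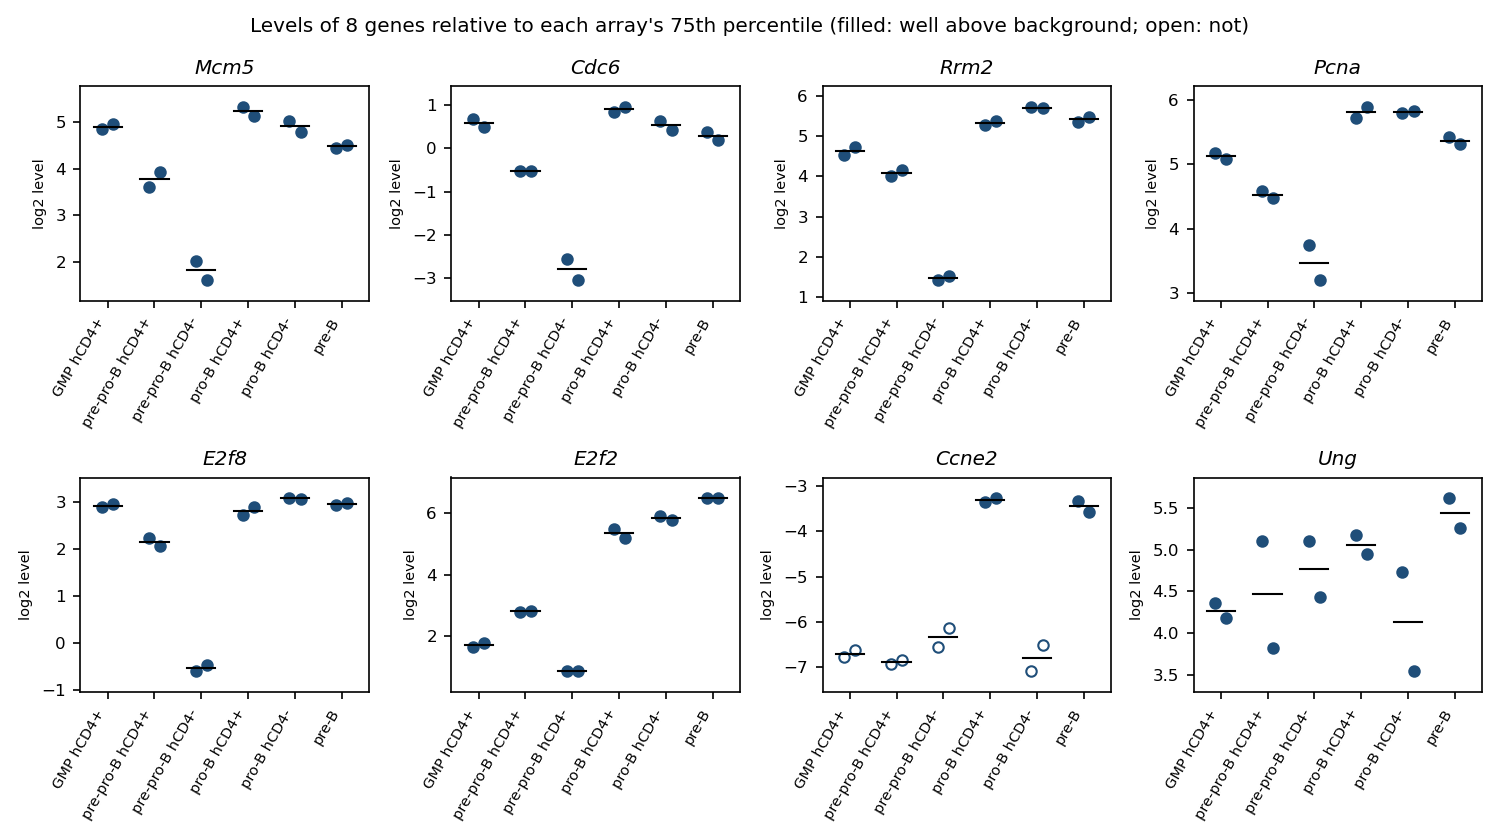
Levels of 8 genes, log2 relative to the 75th percentile of each array, on the 12 arrays by sorted group; points are arrays, lines are group means, and open points are not well above background. Mcm5, Cdc6, Rrm2, Pcna and E2f8 are lowest in hCD4- pre-pro-B cells, E2f2 is highest in pre-B cells, Ccne2 is above background on 4 arrays, and the replicates of Ung lie far apart in hCD4- pro-B and in hCD4+ pre-pro-B cells.

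Between the pre-pro-B groups, hCD4+ cells had more RNA of almost all replication genes than hCD4- cells. Of the 40 genes, 35 rose and 0 fell at a limma adjusted p under 0.05 (37 and 1 at an unadjusted p under 0.05), where 17.0% of all genes were called (8.78% higher, 8.27% lower). The median change of the 40 was 1.82 on the log2 scale, against -0.06 for all genes. All 6 helicase genes rose, by 1.23 to 1.96, and all 5 genes of origin loading and firing, by 1.84 to 2.45. The largest rises were those of E2f7 (2.75 ± 0.10, 6.71-fold, adjusted p = 1.34e-05), E2f8 (2.69 ± 0.11, adjusted p = 1.54e-05), Rrm2 (2.59 ± 0.12, adjusted p = 1.56e-05) and Mcm10 (2.45 ± 0.10, adjusted p = 1.46e-05), where errors are standard errors and p-values are from limma, adjusted by Benjamini-Hochberg over all 18559 genes. A second kept probe of E2f7 gave -0.36, in the other direction. Cdc6 rose by 2.27 ± 0.17, Ccne1 by 2.30 ± 0.16, Mcm5 by 1.96 ± 0.17, Cdt1 by 1.84 ± 0.16, Mcm2 by 1.23 ± 0.15, E2f1 by 1.08 ± 0.15 and Pcna by 1.06 ± 0.17. Pold1 had the smallest called rise (0.54 ± 0.13, adjusted p = 0.0264).

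The 5 genes that were not called are Slbp, Pola2, Rfc3, Ung and Ccne2. Slbp changed by 0.32 ± 0.17 (adjusted p = 0.216) and Rfc3 by 1.21 ± 0.46 (adjusted p = 0.111). Pola2 had hCD4+ values that were at least 1.38-fold the dimmest measurable level of the hCD4- arrays (adjusted p = 0.0945). An "at least" fold sets a group that was not well above background to the dimmest level still measured as above background on its arrays. Ung had a value in the other direction (-0.30 ± 0.49, adjusted p = 0.704), and Ccne2 was not above background in either group. The 13 genes with the E2F letters in their promoter window included 12 called genes and had a median change of 1.93, while the 20 genes with a window and no match included 17 called genes and had a median of 1.58; this split is a description.

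Markers of other cells were read on the same arrays. The GMP list (Mpo, Elane and others) had 5 of 8 genes higher in hCD4+ pre-pro-B cells, and its summed level, the log2 of the sum of the linear levels, was 4.20 to 5.42 in hCD4+ cells against 1.94 to 2.19 in hCD4- cells. Mpo itself lay at 3.22 and 4.63 in hCD4+ and 0.52 and -3.15 in hCD4- pre-pro-B cells. Dendritic cell lists were present in both groups: the classical list had 0 of 5 genes called and summed levels of 6.59 to 6.63 against 6.59 to 6.62, and the plasmacytoid list had 1 of 8 genes lower and summed levels of 8.20 to 8.27 against 8.56 to 8.88. The erythroid list had 1 of 9 genes lower, at 2.94 to 3.29 against 2.16 to 3.21, and the T cell list 2 of 7 higher and 2 lower, at 4.16 to 4.18 against 4.42 to 4.61. The late neutrophil list had 2 of 9 genes lower, at -1.54 to -1.50 against -0.13 to 1.47. The natural killer list had 0 of 4 genes called, at 3.43 to 3.51 against 3.64 to 3.78. In the natural killer and classical dendritic cell lists no gene passed an unadjusted p of 0.05 either (limma). At that threshold the plasmacytoid list had 4 of 8 genes lower and 0 higher, and its median change was -0.49. The late neutrophil list had 3 of 9 lower and 0 higher, and the GMP list 6 of 8 higher and 0 lower. The part of all these lists in the replication gene difference was not tested, and neither was that of the dimmer hCD4- arrays.

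Between the pro-B groups, by contrast, few replication genes were called. Of the 40 genes, 2 rose and 2 fell in hCD4+ relative to hCD4- pro-B cells, where 20.5% of all genes were called (11.6% higher, 8.86% lower). The median change was 0.13, against 0.02 for all genes. Tk1 rose by 0.41 ± 0.12 (adjusted p = 0.0425), E2f2 fell by 0.49 ± 0.12 (adjusted p = 0.0247) and E2f7 fell by 0.46 ± 0.10 (adjusted p = 0.0189). Ccne2, the fourth, was at least 2.86-fold higher in hCD4+ pro-B cells (limma adjusted p = 7.67e-05) and is described with its probe below. It passed the detection filter only through hCD4+ pro-B and pre-B cells, where it was high, so its call lends no support. With every array centred on its own median, the calls were 1 higher and 5 lower. They were 3 higher and 1 lower in the authors' deposited table. In all, 8 genes were called without either hCD4- pre-pro-B array, 2 without the first hCD4+ pro-B array, and 1 without the second or without either hCD4- pro-B array. The always-named helicase genes had values of 0.45 ± 0.15 for Mcm2 (adjusted p = 0.0663) and 0.32 ± 0.17 for Mcm5 (adjusted p = 0.233). Values for the other always-named genes were 0.38 ± 0.17 for Cdc6, 0.34 ± 0.16 for Cdt1, 0.37 ± 0.15 for E2f1, -0.27 ± 0.11 for E2f8, -0.39 ± 0.12 for Rrm2, -0.002 ± 0.17 for Pcna, -0.13 ± 0.16 for Ccne1 and 0.06 ± 0.17 for Slbp, none of them called. These pro-B groups did differ in other lists. The GMP list had 8 of 8 genes higher in hCD4+ pro-B cells, with summed levels of 7.06 to 7.21 against 1.32 to 1.63, and the classical dendritic cell list 5 of 5 higher, at 3.34 to 3.51 against 0.18 to 0.62. The late neutrophil list had 6 of 9 genes lower and 1 higher, at -0.51 to 0.25 against 3.83 to 4.69. The plasmacytoid list had 5 of 8 genes higher and 1 lower, at 6.96 to 6.97 against 6.76 to 6.80. The later B list had 4 of 8 lower and 1 higher, at 3.02 to 3.12 against 4.40 to 4.51. A list of 11 genes linked to leaving the cell cycle had 6 lower and 0 higher, at 5.44 to 5.48 against 6.24 to 6.41. Their part in the replication gene values was not tested.

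The hCD4 difference itself differed between the stages. An interaction term (the change at the pro-B stage minus the change at the pre-pro-B stage) was called for 36 of the 40 genes, negative for 35 and positive for 1, where 23.0% of all genes were called (13% higher, 10% lower). The median was -1.64, against 0.06 for all genes. The most negative values were -3.20 ± 0.15 for E2f7 (adjusted p = 0.000131), -2.99 ± 0.17 for Rrm2 (adjusted p = 0.000163), -2.96 ± 0.16 for E2f8 (adjusted p = 0.000163) and -2.43 ± 0.23 for Ccne1 (adjusted p = 0.000502). A second kept probe of E2f7 gave 0.53, in the other direction. The positive call was that of Ccne2, which was above background in hCD4+ pro-B cells alone among these groups, so that its size is not measured. Since Ccne2 passed the detection filter only through hCD4+ pro-B and pre-B cells, this call lends no support. Pola2, Rfc3, Slbp and Ung were not called.

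**Figure D3:**
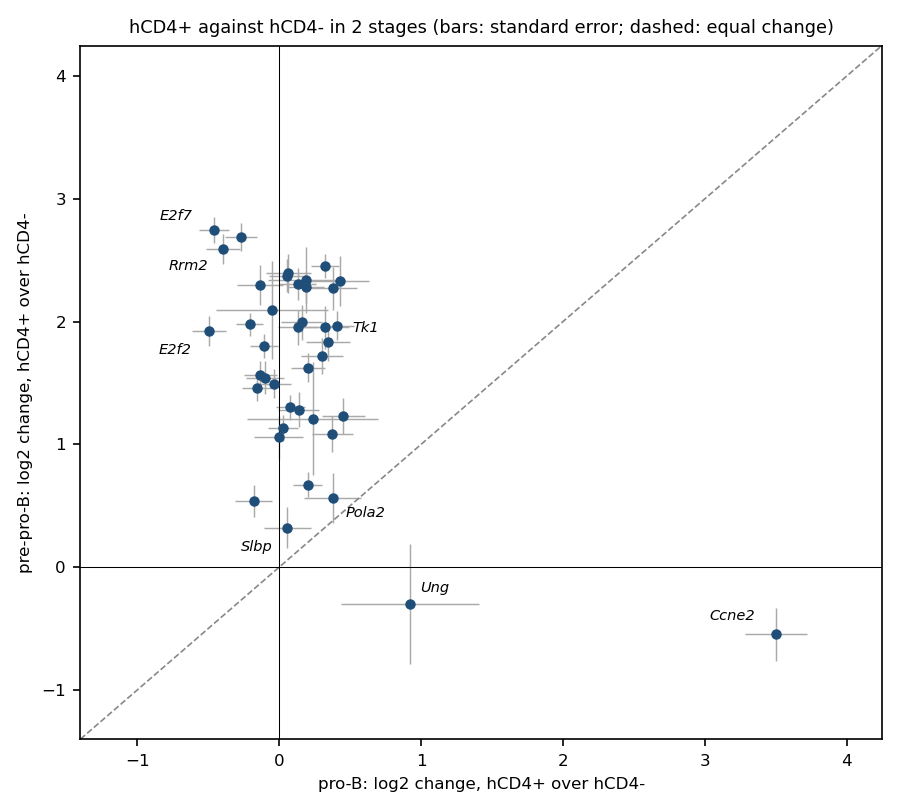
Change between hCD4+ and hCD4- cells at the pro-B stage (horizontal, log2) and at the pre-pro-B stage (vertical, log2) for the 40 genes, with standard errors from the fit; the dashed line marks equal change. Most genes sit near 0 on the horizontal axis and between 1 and 2.75 on the vertical one, and Ccne2, above background in 1 of the 4 groups, sits apart at 3.50 and -0.54.

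From the pre-pro-B to the pro-B stage, replication genes rose in both hCD4 classes. In hCD4- cells 38 of 40 rose and 0 fell, where 59.7% of all genes were called (32.7% higher, 26.9% lower), with a median change of 3.22 against 0.02 for all genes. In hCD4+ cells 39 of 40 rose and 0 fell, where 54.2% of all genes were called (33.1% higher, 21.1% lower), with a median change of 1.42 against 0.25 for all genes. The largest rises in hCD4- cells were those of E2f2 (4.95 ± 0.12), Rrm2 (4.23 ± 0.12), Gins2 (4.12 ± 0.40) and Gins1 (4.03 ± 0.13). Gins2 was well above background on only 1 of the 2 hCD4- pre-pro-B arrays, which limits the size and rank of its rise. In hCD4+ cells E2f2 (2.53 ± 0.12), Dut (2.08 ± 0.12), Rfc3 (2.03 ± 0.46) and Gins2 (1.98 ± 0.40) rose most among genes measured in both groups. The smallest called rises in hCD4+ cells were those of Rfc5 (0.30 ± 0.11, adjusted p = 0.0443) and E2f1 (0.47 ± 0.15, adjusted p = 0.0243), and with every array centred on its median the value for Rfc5 was -0.035. In the hCD4- comparison Pola2 was at least 3.02-fold higher in pro-B cells (adjusted p = 0.000148). At both steps the B lineage list had 13 of 14 genes higher, with summed levels in pro-B against pre-pro-B cells of 10.28 to 10.32 against 7.13 to 7.21 for hCD4- and 9.75 against 6.87 to 6.91 for hCD4+ cells. The classical dendritic cell list had 5 of 5 genes lower at both steps, at 0.18 to 0.62 against 6.59 to 6.62 for hCD4- and 3.34 to 3.51 against 6.59 to 6.63 for hCD4+ cells. The plasmacytoid list had 8 of 8 genes lower for hCD4-, at 6.76 to 6.80 against 8.56 to 8.88, and 7 of 8 lower for hCD4+ cells, at 6.96 to 6.97 against 8.20 to 8.27. The late neutrophil list had 7 of 9 genes higher for hCD4- cells, at 3.83 to 4.69 against -0.13 to 1.47. For hCD4+ cells 2 of 9 were higher. The GMP list had 5 of 8 genes higher for hCD4+ cells, at 7.06 to 7.21 against 4.20 to 5.42. For hCD4- cells 1 was higher and 1 lower. The part of these lists in the rises was not tested.

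The comparison of hCD4- pro-B with hCD4+ pre-pro-B cells, whose arrays share a slide, gave 36 of 40 genes higher in pro-B cells and 0 lower, where 47.8% of all genes were called (29.2% higher, 18.6% lower). Its median change was 1.19, against 0.15 for all genes. E2f2 (3.02 ± 0.12), Gins2 (2.03 ± 0.40), Dut (1.88 ± 0.12) and Chaf1b (1.83 ± 0.13) rose most. All 6 helicase genes rose, by 1.05 to 1.42, and so did all 5 genes of origin loading and firing, by 1.05 to 2.03. Of the always-named genes, E2f1 was not called (0.10 ± 0.15, adjusted p = 0.619), and Pcna rose by 1.28 ± 0.17, Rrm2 by 1.64 ± 0.12 and Slbp by 0.94 ± 0.17. No gene of the 40 was lower at an unadjusted p under 0.05 in any of the 3 comparisons of pro-B with pre-pro-B cells or in GMP against hCD4- pre-pro-B cells (limma). At the same step the B lineage list had 13 of 14 genes higher, with summed levels of 10.28 to 10.32 in hCD4- pro-B against 6.87 to 6.91 in hCD4+ pre-pro-B cells. The classical dendritic cell list had 5 of 5 lower, at 0.18 to 0.62 against 6.59 to 6.63. The plasmacytoid list had 7 of 8 lower, at 6.76 to 6.80 against 8.20 to 8.27. The GMP list had 6 of 8 lower, at 1.32 to 1.63 against 4.20 to 5.42. The late neutrophil list had 8 of 9 higher, at 3.83 to 4.69 against -1.54 to -1.50. Their part in the replication gene values was not tested.

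From the pro-B to the pre-B stage the called changes were mostly downward. Against hCD4+ pro-B cells, on the same slide, 23 of 40 genes fell and 1 rose in pre-B cells, where 42.9% of all genes were called (18.8% higher, 24.0% lower). The median change was -0.59, against 0.01 for all genes. The largest falls among called genes were those of Tk1 (-1.15 ± 0.12), Chaf1b (-0.98 ± 0.13), Cdt1 (-0.89 ± 0.16) and Mcm6 (-0.88 ± 0.12), with adjusted p-values of 0.000131, 0.00057, 0.00221 and 0.00059 in that order. All 6 helicase genes fell, and Cdc6 fell by 0.62 ± 0.17. Pcna (-0.44 ± 0.17), E2f1 (-0.37 ± 0.15), E2f8 (0.15 ± 0.11), Rrm2 (0.10 ± 0.12), Ccne1 (-0.45 ± 0.16) and Slbp (0.08 ± 0.17) were not called. Markers moved here too. In pre-B cells the GMP list had 8 of 8 genes lower, with summed levels of 1.86 to 2.17 against 7.06 to 7.21, the classical dendritic cell list 5 of 5 lower, at -2.06 to -0.26 against 3.34 to 3.51, and the later B list 7 of 8 higher, at 5.84 to 5.93 against 3.02 to 3.12. Their part in the result was not tested.

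Against hCD4- pro-B cells, 21 of 40 genes fell and 2 rose in pre-B cells, where 41.1% of all genes were called (19.7% higher, 21.4% lower), and the median change was -0.45, against 0.03 for all genes. Chaf1b (-1.08 ± 0.13), Mcm6 (-0.91 ± 0.12), Gins1 (-0.78 ± 0.13) and Mcm4 (-0.75 ± 0.12) fell most, with the ranking taken among called genes. Other lists moved in this comparison. The late neutrophil list had 7 of 9 genes lower, with summed levels of -0.85 to -0.23 in pre-B against 3.83 to 4.69 in hCD4- pro-B cells, and the later B list 6 of 8 higher, at 5.84 to 5.93 against 4.40 to 4.51. The GMP list had 1 of 8 genes higher and 1 lower, at 1.86 to 2.17 against 1.32 to 1.63, and the part of these lists was not tested. The authors' deposited table gave 13 lower and 3 higher. The number of called genes was 14 without either pre-B array or without the second hCD4- pro-B array, 15 without the first hCD4- pro-B array, and 15 after quantile normalization.

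GMP had more RNA of most replication genes than either pre-pro-B group. Against hCD4+ pre-pro-B cells 32 of 40 genes were higher in GMP and 2 lower, where 54.2% of all genes were called (31.3% higher, 22.8% lower), with a median change of 1.10 against 0.10 for all genes. Cdt1 (1.96 ± 0.16), Gins1 (1.94 ± 0.13), Gins2 (1.80 ± 0.40) and Dut (1.71 ± 0.12) had the largest rises, and E2f2 (-1.08 ± 0.12, adjusted p = 0.000117) and E2f7 (-0.71 ± 0.10, adjusted p = 0.000559) fell. All 11 genes of the helicase and of origin loading and firing rose, but of the 7 regulators only E2f1, E2f8 and Ccne1 did. Against hCD4- pre-pro-B cells, on the same slide, 38 of 40 genes were higher in GMP and 0 lower, where 65.5% of all genes were called (34.7% higher, 30.8% lower), with a median change of 3.004 against -0.04 for all genes. Gins1 (4.31 ± 0.13), Pola1 (3.93 ± 0.13), Gins2 (3.90 ± 0.40) and Dscc1 (3.84 ± 0.16) rose most, Pola2 was at least 2.93-fold higher (adjusted p = 0.000137), and Slbp rose least (0.44 ± 0.17, adjusted p = 0.0454). The size and rank for Gins2 are limited, since only 1 of its 2 hCD4- pre-pro-B arrays was well above background. The GMP list had 8 of 8 genes higher than in either pre-pro-B group, with summed levels of 9.94 to 10.22 in GMP against 4.20 to 5.42 in hCD4+ and 1.94 to 2.19 in hCD4- pre-pro-B cells. The plasmacytoid dendritic cell list had 8 of 8 genes lower than in either group, at 6.29 to 6.30 against 8.20 to 8.27 and 8.56 to 8.88, and the classical list 5 of 5 lower, at 1.70 to 1.75 against 6.59 to 6.63 and 6.59 to 6.62. The part of these lists was not tested.

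Set against pre-B cells, GMP were higher in 18 replication genes and lower in 7, where 65.0% of all genes were called (30.6% higher, 34.4% lower). The median change was 0.38, against -0.13 for all genes. This split depended on how arrays were scaled: it was 12 higher and 11 lower after quantile normalization, 15 and 11 in the authors' deposited table, 14 and 10 after cyclic loess, 13 and 10 after normexp background correction with quantile normalization, and 28 and 6 with arrays centred on their medians. Tk1 (1.36 ± 0.12), Cdt1 (1.34 ± 0.16), Mcm6 (1.24 ± 0.12) and Rfc5 (1.16 ± 0.11) rose most in GMP. The 7 genes that fell are E2f2 (-4.74 ± 0.12, adjusted p = 3.35e-08), Ccne2, E2f7 (-1.38 ± 0.10), Clspn (-1.12 ± 0.21), Slbp (-0.97 ± 0.17), Rrm2 (-0.79 ± 0.12) and Pold1 (-0.46 ± 0.13). Of the 7 regulators 4 fell and 1 rose, E2f1 (0.57 ± 0.15), while of the 11 genes of the helicase and of origin loading and firing 8 rose and 0 fell. After quantile normalization these counts were 6 lower and 1 higher for the regulators, and 5 higher and 0 lower for the helicase and origin genes. Marker lists differed widely between GMP and pre-B cells. In GMP the GMP list had 8 of 8 genes higher, with summed levels of 9.94 to 10.22 against 1.86 to 2.17, the B lineage list 14 of 14 lower, at 3.18 to 3.32 against 9.83 to 9.85, the later B list 7 of 8 lower, at 0.15 to 0.28 against 5.84 to 5.93, and the plasmacytoid dendritic cell list 6 of 8 lower and 2 higher, at 6.29 to 6.30 against 7.73 to 7.84. Their part in the replication gene values was not tested.

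**Figure D4:**
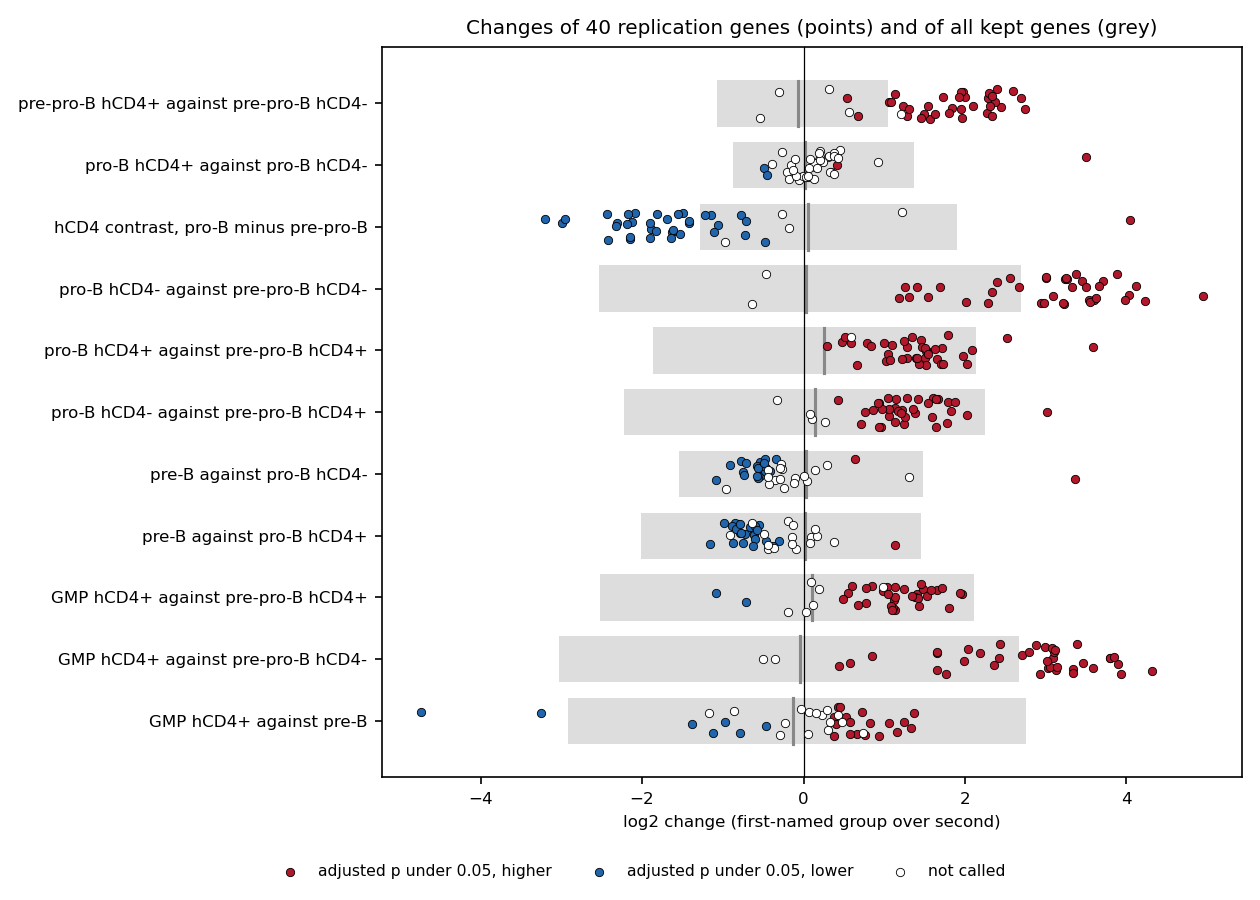
Log2 change of the 40 genes (points, coloured by direction where the adjusted p was under 0.05, white otherwise) in 11 contrasts, over a grey bar from the 5th to the 95th percentile of all 18559 genes with a line at their median; vertical scatter within a row has no meaning. In comparisons with pre-pro-B cells as the second group most points lie to the right of the line, with E2f2, E2f7, Ung and Ccne2 among the exceptions, and the median is 1.82 in the first row and 0.13 in the second.

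E2f2, an activating E2F factor, had a pattern of its own. It lay at 1.66 and 1.79 in GMP, 2.78 and 2.83 in hCD4+ pre-pro-B, 0.89 and 0.87 in hCD4- pre-pro-B, 5.47 and 5.20 in hCD4+ pro-B, 5.88 and 5.77 in hCD4- pro-B and 6.46 and 6.47 in pre-B cells. Pre-B arrays were the highest, then both pro-B groups, then hCD4+ pre-pro-B, GMP and hCD4- pre-pro-B cells, and no neighbouring pair of groups in that order overlapped. E2f2 rose in pre-B cells relative to hCD4+ pro-B (1.13 ± 0.12, adjusted p = 0.000172) and hCD4- pro-B cells (0.64 ± 0.12, adjusted p = 0.0043), where most replication genes fell. It was 30.8-fold higher in hCD4- pro-B than in hCD4- pre-pro-B cells. E2f7 was the other gene that fell in GMP relative to hCD4+ pre-pro-B cells. A second kept probe for E2f7 gave other values (-0.36 between the pre-pro-B groups, where the probe used gave 2.75, and 0.20 in GMP against hCD4+ pre-pro-B cells, where the probe used gave -0.71), and which of the probes measures the transcript was not tested.

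Ccne2, cyclin E2, was well above background on 4 of the 12 arrays, those of hCD4+ pro-B (-3.34 and -3.27) and pre-B cells (-3.32 and -3.58), which are the arrays of a single slide. The other arrays lay at -6.78 and -6.63 in GMP, -6.94 and -6.84 in hCD4+ pre-pro-B, -6.56 and -6.13 in hCD4- pre-pro-B and -7.10 and -6.52 in hCD4- pro-B cells. Within that slide, pre-B and hCD4+ pro-B cells differed by -0.14 ± 0.22 (adjusted p = 0.635). Across slides it was at least 2.7-fold higher in hCD4+ pro-B than in hCD4+ pre-pro-B cells (adjusted p = 6.4e-06), at least 2.59-fold higher in pre-B than in hCD4- pro-B cells (adjusted p = 3.87e-05) and at least 2.25-fold lower in GMP than in pre-B cells (adjusted p = 4.24e-06). Here slide and group cannot be told apart. Ccne2 also passed the detection filter only through hCD4+ pro-B and pre-B cells. The p-values across slides therefore rest on a selection by the same values. The Ccne2 probe has 15% G and C, and no probe on the array has less. The last 30 of its 60 bases are shown because of that composition, with A and T in capitals.
Ccne2 probe: TgTATAATTTgTTTATAAAcTAATTTgTTT

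Ung, which removes uracil from DNA, was the gene not called in any contrast. It lay at 4.36 and 4.18 in GMP, 5.11 and 3.82 in hCD4+ pre-pro-B, 5.10 and 4.43 in hCD4- pre-pro-B, 5.17 and 4.94 in hCD4+ pro-B, 4.73 and 3.54 in hCD4- pro-B and 5.62 and 5.26 in pre-B cells. Its replicates lay far apart in hCD4- pro-B and in hCD4+ pre-pro-B cells. Its probe has a run of 34 bases of alternating G and T, of which the last 30 bases are shown, all in capitals because all belong to the repeat.
Ung probe: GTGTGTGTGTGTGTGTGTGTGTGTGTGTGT

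By the array annotation (mm9) the Ccne2 probe lies at chr4:11131423-11131482 and the Ung probe at chr5:114588731-114588790, both on the plus strand. Of the 40 genes, these 2 had a negative value between hCD4+ and hCD4- pre-pro-B cells.

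A wider list holds 63 other replication genes, of which 56 were kept. Between hCD4+ and hCD4- pre-pro-B cells 41 rose and 2 fell, where 8.78% of all genes were higher and 8.27% lower. The median change of the list was 0.98. Orc1, a subunit of the origin recognition complex, was at least 1.92-fold higher and the nuclease gene Dna2 at least 2.4-fold higher. Between the pro-B groups 3 rose and 0 fell, where 11.6% of all genes were higher and 8.86% lower. E2f4, an E2F factor of the repressor class, came first (1.29 ± 0.15). At an unadjusted p under 0.05 limma gave 6 higher and 3 lower. In GMP 46 were higher and 1 lower than in hCD4+ pre-pro-B cells, where 31.3% of all genes were higher and 22.8% lower. Cdca7 came first (2.88 ± 0.19). In GMP 30 were higher and 9 lower than in pre-B cells, where 30.6% of all genes were higher and 34.4% lower. In pre-B cells 33 fell and 1 rose relative to hCD4+ pro-B cells, where 24.0% of all genes were lower and 18.8% higher. Dctpp1, which breaks down dCTP, fell most (-1.67 ± 0.13).

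Genes of G2 and M phase were read as a list of 28, of which 27 were kept. Between hCD4+ and hCD4- pre-pro-B cells 26 of 27 rose and 0 fell, where 8.78% of all genes were higher and 8.27% lower. The median change of the list was 2.39. The kinetochore gene Nuf2 (3.37 ± 0.45), the mitotic kinase gene Cdk1 (3.23 ± 0.12) and the topoisomerase gene Top2a (3.09 ± 0.41) rose most. None fell at an unadjusted p under 0.05 in limma either, and none rose so in GMP relative to pre-B cells. In GMP relative to hCD4+ pre-pro-B cells 2 rose and 4 fell, where 31.3% of all genes were higher and 22.8% lower. The median change was 0.01, where the 40 replication genes had 32 higher and a median of 1.10. In GMP relative to pre-B cells 0 rose and 23 fell, where 30.6% of all genes were higher and 34.4% lower. The median was -0.96, where the replication genes had a median of 0.38. In pre-B relative to hCD4+ pro-B cells 1 rose and 3 fell, where 18.8% of all genes were higher and 24.0% lower. The median was -0.06, where the replication genes had 23 lower and a median of -0.59. The difference between the lists was not tested.

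**Figure D5:**
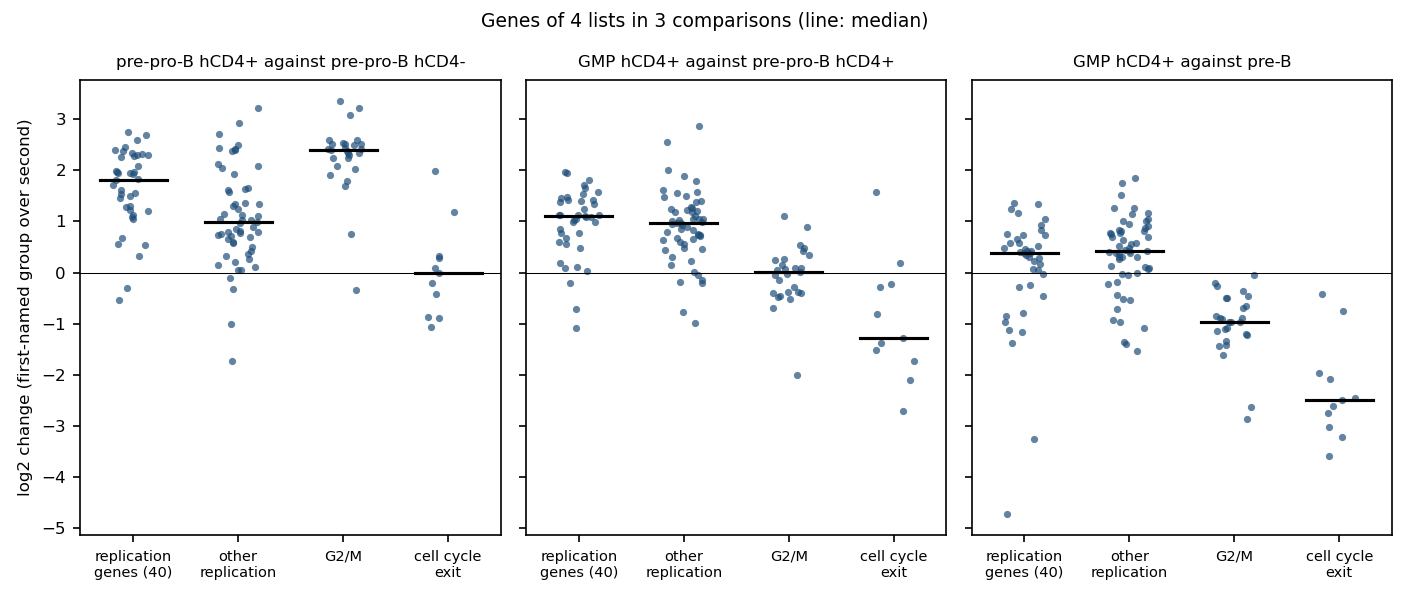
Log2 change of single genes (points) of 4 lists, with the list median (line), in 3 comparisons: hCD4+ against hCD4- pre-pro-B cells, GMP against hCD4+ pre-pro-B cells, and GMP against pre-B cells. The medians of the 40 replication genes are 1.82, 1.10 and 0.38, and those of the G2/M genes are 2.39, 0.01 and -0.96.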

How the data were processed

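RNA from sorted marrow subsets was measured on 12 one-colour arrays. Per the file headers, the authors extracted spots with Agilent's Feature Extraction software (version 10.7.3.1, protocol GE1_107_Sep09). Its processed signal, as deposited, is a spot intensity corrected for background and not normalized between arrays. The authors' deposited table of the whole series holds log2 values rounded to 1 decimal with 1 row per gene name and the same median (6.5) in every column; its normalization is not given in the sources used here, and it served as an alternative. Outlier spots (2469 values) were set missing, control features left out, and spots averaged to 39429 probes. The log2 processed signal minus each array's 75th percentile was the level. Probes had to be well above background on both arrays of some group, and each gene was represented by its brightest kept probe.

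One limma 3.58.1 model in R 4.3.3 held all 12 arrays in 6 groups (lmFit, eBayes, 6 residual and 2.15 prior degrees of freedom). Tests were two-sided and adjusted by Benjamini-Hochberg over all kept genes within each contrast, with a threshold of 0.05. With 2 arrays a group, their number limits the precision. The code was tested on simulated data. Alternatives were normexp background correction (offset 50) with quantile normalization, quantile normalization alone, median centring, the authors' table, other filters, the mean of a gene's probes, only the arrays compared, array weights, the replicate number as a block, each array left out, and cyclic loess, the last chosen after seeing the data.

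The members and all gene lists were chosen with earlier results of these data known. Values on every array are given for the members with the 4 largest called rises and falls per comparison, for Mcm2, Mcm5, Cdc6, Cdt1, E2f1, E2f8, Rrm2, Pcna, Ccne1 and Slbp, and for members not above background in a group or called against the majority. Further lists, read as markers, were B lineage, later B, plasma cell, late neutrophil, erythroid, T cell, natural killer, dendritic cell and cell cycle exit genes.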

Additional observations from a re-analysis of the deposited data

Results flagged for a closer look

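For 36 of the 40 replication genes the change between hCD4+ and hCD4- cells differed between the pro-B and the pre-pro-B stage, by an interaction term in the limma fit at an adjusted p under 0.05. Values are the log2 change at the pro-B stage minus that at the pre-pro-B stage. For the helicase genes the differences were -0.78 (Mcm2), -1.42 (Mcm3), -1.70 (Mcm4), -1.63 (Mcm5), -1.53 (Mcm6) and -1.15 (Mcm7). For origin loading and firing they were -1.89 (Cdc6), -1.49 (Cdt1), -2.13 (Mcm10), -2.32 (Gins1) and -2.15 (Gins2). For polymerases and primase they were -2.09 (Pola1), -2.18 (Prim1), -1.61 (Prim2), -0.72 (Pold1) and -2.18 (Pole).

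Among clamp, clamp loader and joining genes the values were -1.06 (Pcna), -1.91 (Rfc4), -1.10 (Rfc5), -2.33 (Dscc1), -1.22 (Fen1) and -1.83 (Lig1). Nucleotide genes had -1.82 (Rrm1), -2.99 (Rrm2), -0.47 (Tyms), -1.56 (Tk1) and -1.42 (Dut), and the chromatin assembly genes -2.15 (Chaf1a) and -1.64 (Chaf1b). The regulators had -0.71 (E2f1), -2.42 (E2f2), -3.20 (E2f7), -2.96 (E2f8), -2.43 (Ccne1) and -1.90 (Clspn), while a second kept probe of E2f7 gave 0.53. For Ccne2 the fit gave 4.05, but its probe was not above background in 3 of the 4 groups, so that neither the size nor the rank of this value is measured. The 4 groups of this contrast lie on 3 slides, and slide cannot be told apart from group here.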

How the results depend on the processing

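The count of called replication genes stayed within 1.5 times its value under every alternative run for 10 of the 12 tests. The exceptions are hCD4+ against hCD4- pro-B cells and pre-B against hCD4- pro-B cells. For hCD4+ against hCD4- pro-B cells, 4 genes were called; the count was 7 after quantile normalization and after cyclic loess, 8 with array weights, 1 with no detection filter and 1 with only the arrays compared. For pre-B against hCD4- pro-B cells 23 were called, and 15 after quantile normalization. Leaving out each array in turn gave 1 to 8 calls for hCD4+ against hCD4- pro-B cells (8 when an hCD4- pre-pro-B array was dropped, 1 when an hCD4- pro-B array or the second hCD4+ pro-B array was) and 14 to 26 for pre-B against hCD4- pro-B cells. It gave 33 to 36 calls between the pre-pro-B groups, 30 to 36 for the interaction term and 18 to 28 for GMP against pre-B cells.

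Of the alternative values for single genes, 9565 kept their direction and side of the threshold, 343 lost the call, 150 gained one and 7 changed direction. These are Ccne2 between the hCD4- pro-B and pre-pro-B groups in the authors' deposited table (0.30), Rfc5 between the hCD4+ pro-B and pre-pro-B groups with median centring (-0.035), Rfc4 in GMP against pre-B cells in the authors' deposited table (-0.05), E2f8 in GMP against pre-B cells with median centring (0.41), and Pold1 in GMP against hCD4+ pre-pro-B cells with normexp (-0.34), the authors' deposited table (-0.35) and cyclic loess (-0.35). The cause was not tested. Median centring moved the median of all genes by 0.30 between the pre-pro-B groups, -0.22 between the pro-B groups, -0.52 in their difference and 0.45 in GMP against pre-B cells.

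With the replicate number as a block, 36 genes were called between the pre-pro-B groups and 4 between the pro-B groups, and no count of calls moved by over 1.5 times. Correlations of same-numbered arrays' deviations ran from -0.01 to 0.25 over 15 pairs of groups, 10 of them over 0.1 and 0 under -0.1. Since not every pair was over 0.1, the numbers were not taken to pair the samples. That rule is not a test of pairing, and whether the numbers pair the samples is not known. Slide as a random block was not run, since no group spans slides. Dim probes limit Ccne2, Pola2, Gins2, Rfc3 and Clspn in hCD4- pre-pro-B cells.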

Other observations

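Genes linked to leaving the cell cycle (11 genes, all kept) rose in pre-B cells where replication genes fell. Relative to hCD4+ pro-B cells, on the same slide, 9 rose and 1 fell in pre-B cells, where 18.8% of all genes were higher and 24.0% lower. Cdkn1b, an inhibitor of cyclin-dependent kinases, lay at 4.07 and 3.91 in pre-B and 2.53 and 2.61 in hCD4+ pro-B cells, a rise of 1.42 ± 0.13 (limma adjusted p = 8.64e-05). Btg1 rose by 2.18 ± 0.14, Ccng2 by 2.08 ± 0.16 and Rb1, the retinoblastoma protein gene, by 1.24 ± 0.11. Cdkn1a fell by 1.17 ± 0.27. These lists did not run opposite in every comparison. From hCD4- pre-pro-B to hCD4- pro-B cells 7 of the 11 rose and 2 fell, where 32.7% of all genes were higher and 26.9% lower. At that step 38 of the 40 replication genes rose. From hCD4+ pre-pro-B to hCD4+ pro-B cells, where 39 replication genes rose, 3 of the 11 rose and 3 fell. Of all genes, 33.1% were higher and 21.1% lower there. In GMP relative to pre-B cells 0 rose and 10 fell, where 30.6% of all genes were higher and 34.4% lower. None rose at an unadjusted p under 0.05 in limma either, and the median change was -2.50. Between hCD4+ and hCD4- pre-pro-B cells, 8.78% of all genes were higher and 8.27% lower, and 35 replication genes rose. Of the 11 genes here, 2 rose (Cdkn1a, 1.98 ± 0.27, and Cdkn2c, 1.18 ± 0.17) and 2 fell. These are Rbl2 (-1.07 ± 0.20) and Cdkn2a, which was not above background in either group, and Cdkn1b lay at 2.94 and 2.80 in hCD4+ and 2.93 and 3.22 in hCD4- cells.

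Further kept probes of members gave further values between hCD4+ and hCD4- pre-pro-B cells. They were 3.26 for Cdc6 (2.27 with the probe used), 2.20 for Ccne1 (2.30), 1.67 for Mcm3 (1.72), 1.76 for Chaf1b (1.54), 1.21 for Rfc4 (1.80) and 0.72 for Slbp (0.32). The others of Pole gave 2.94 and 0.12 (2.31). The further probe of E2f7 gave -0.36 (2.75).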
